A study of Mus musculus with 36 samples.

Results

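Ex-fetu stromal progenitors (SP) from E12.5 mouse kidneys were compared with SP from E11.5 kidneys, to describe how the RNA of this progenitor changed over a single day of kidney development. The comparison used 8 of the 36 RNA sequencing samples of the series, 4 at each age, chosen by their sample titles alone. Both groups came from wild-type CD1 embryos with no transgene or treatment, and the age was the only labelled difference between them. A sample pooled the kidneys of a whole litter. Endothelial cells (CD31) and ureteric bud (UB) cells (EpCAM and RET) were gated away, and ITGA8 low, PDGFRA high cells were sorted as SP. Each SP library came from 1 such pool, so the p-values measure the spread between pooled litters. Whether SP, NP and UB libraries shared pools is not stated in the sources used here. Kidneys were sorted fresh or after days in the cold, and the sources used here do not say which library was which.

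The renal stroma surrounds the nephron progenitors (NP) and the branching UB. Its progenitors express the transcription factor Foxd1 and the receptor Pdgfra, make the matrix and retinoic acid of the kidney interstitium, and give rise to fibroblasts, mesangial cells and the mural cells of vessels. At the younger age the kidney is a bud with its first branch inside a cap of mesenchyme, and at the older age the bud has branched several times and a stromal layer can be recognised.

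Values are given as normalised CPM, read counts scaled to the size of each library. A gene was tested when 4 or more of the 8 libraries held a value of 1 or higher, and called when its adjusted p-value (limma on log2(value + 1), Benjamini-Hochberg) was under 0.05. Changes are E12.5 minus E11.5 on that log2 scale, which understates the change of genes near 0. Of the genes tested, 74 were under 1 in every E12.5 library and 47 under 1 in every E11.5 library: these reached the test only through the age at which they were high, so that the filter favours a difference, and 63 and 39 of them were called. The bulk values cannot tell fewer cells of a type from less RNA per cell.

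The sort left the defining stromal genes at high levels in all 8 libraries. Foxd1, the transcription factor that marks the stromal progenitor, read 265, 367, 447 and 563 in the E11.5 libraries 1 to 4 and 546, 717, 758 and 649.7 in the E12.5 libraries 1 to 4. The lowest E12.5 value was below the highest E11.5 value, and the difference of 0.74 ± 0.22 (SE) was not called (adjusted p = 0.0662). Pdgfra, the receptor used in the gate, read 349, 350.5, 337 and 337 at E11.5 and 204, 612, 551 and 622 at E12.5, where the first library was lower than every E11.5 library and the other 3 were higher. Itga8, the integrin of the other axis of the gate, was low at both ages (13.03 to 28.1 and 13.97 to 20.2, against NP means of 102 and 139). The homeobox factor Meis1 (265 to 343 at E11.5 and 185 to 298 at E12.5) was abundant throughout and was not called.

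2 of the libraries, E12.5 library 1 and E11.5 library 4, lay away from the rest of their groups. The first principal component (48.3% of the variance) put E11.5 libraries 1 and 2 at -43.9 and -39.0, library 3 at -20.6 and library 4 at -1.59, while the E12.5 libraries 2, 3 and 4 lay at 38.2, 31.7 and 37.3. The first E12.5 library lay at -2.14, beside the fourth E11.5 library, and alone at the end of the second component (21.9%; -44.4 against -9.42 to 15.9 for the other E12.5 libraries). Its log2 values correlated with those of the other E12.5 SP libraries at 0.953 to 0.963, while those 3 correlated with each other at 0.987 to 0.992. It was also the shallowest of the 8, with 18.6 M reads on genes against 21.5 to 52.5 M in the others. Counts of called genes are therefore also given without this library.

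**Figure D1:**
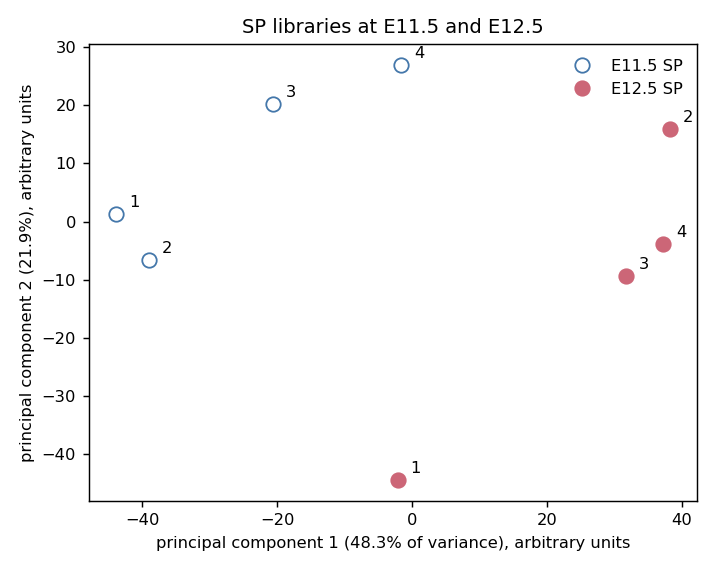
Position of the 8 SP libraries on the first and second principal components of log2(normalised CPM + 1), in arbitrary units, with the share of variance on each axis and the replicate number beside each point. The E11.5 libraries spread from -43.9 to -1.59 on the first component, the E12.5 libraries 2, 3 and 4 lie between 31.7 and 38.2, and E12.5 library 1 lies apart at -44.4 on the second.

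Of 13633 genes tested, 1162 were called (8.52%), 508 higher (3.73%) and 654 lower (4.8%) at E12.5. An unadjusted p-value under 0.05 was found for 3278, and the values of the ages did not overlap for 2127 (15.6%). The median change over all genes tested was near 0 (-0.00052), and the median size of a change was 0.22. Of the called genes, 533 changed by more than 1 on the log2 scale and 82 by more than 2, of which 31 were higher and 51 lower. Without E12.5 library 1, 2889 of 13439 genes were called (21.5%), 1442 higher (10.7%) and 1447 lower (10.8%). Of the 1162 genes called with all 8 libraries, 1117 were also called in the same direction without it, 39 were no longer tested (7 libraries offer fewer in which a gene can reach the filter), 6 were not called and 0 were called in the opposite direction. Leaving out E11.5 library 4 gave 1446 called genes, and leaving out any of the other 6 libraries gave 392 to 617.

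The genes that rose most included matrix, adhesion and signalling genes. Among genes called both ways, with groups that did not overlap, 9 of the 10 largest increases were those of Col6a6, Il33, Trpm5, Npr3, Col6a3, Reln, Mical2, Lama4 and Alcam. Col6a6 (chromosome 9, 105687809 to 105828160 on GRCm38), a chain of the beaded-filament collagen VI, read 3.47, 6.88, 10.8 and 6.87 at E11.5 and 49.8, 73.3, 71.2 and 90.1 at E12.5. It rose by 3.22 ± 0.29 (adjusted p = 0.000852), and was near 0 in NP at both ages (means of 0.323 and 0.963). Il33 (chromosome 19, 29925114 to 29960718), a nuclear alarmin cytokine, read 1.23, 1.63, 4.05 and 8.58 at E11.5 and 15.3, 42.97, 33.1 and 48.9 at E12.5, so that the highest E11.5 library and the lowest E12.5 library differed by less than the libraries of E12.5 did among themselves. Trpm5, a cation channel, read 0.501, 0.365, 0.556 and 1.43 and then 11.9, 10.4, 11.7 and 14.7. It had the smallest p-value of all genes tested (2.97 ± 0.20, adjusted p = 0.000519). Npr3, the clearance receptor for natriuretic peptides, read 12.2, 8.15, 6.04 and 11.8 at E11.5 and 25.4, 105, 86.4 and 129 at E12.5. Library 1 was the lowest at E12.5, and the rise was 2.88 ± 0.45, or 3.38 without that library.

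The other 5 of these genes had the same lowest E12.5 and highest E11.5 library. Reln, a secreted matrix glycoprotein known from neuronal migration, rose from a mean of 9.43 ± 6.55 (SD, n = 4) to 73.5 ± 39.7, and Lama4, the laminin chain of vessel basement membranes, from 22.9 ± 12.6 to 134 ± 26.9. Alcam, an adhesion molecule of the immunoglobulin family, rose from 27.1 ± 7.46 to 172 ± 69.2, and Mical2, an actin-oxidising enzyme, from 3.59 ± 1.75 to 29.6 ± 13.7. In all 5, Col6a3 included, the fourth E11.5 library held the highest value of its age and E12.5 library 1 the lowest of its own.

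The genes that fell most included transcription factors of the caudal trunk and cartilage collagens. By the same rule, 9 of the 10 largest decreases were those of Isl1, Foxf2, Col2a1, Hoxd13, Evx1, Krt8, Hand2, Col9a1 and Igdcc3. Of these, Foxf2, Evx1 and Hand2 were under 1 in every E12.5 library and reached the test only through E11.5. Isl1 (chromosome 13, 116298281 to 116309689 on GRCm38), a LIM homeobox factor of hindlimb, genital and pelvic mesenchyme, read 94.7, 74.1, 19.3 and 4.73 at E11.5 and 2.60, 0.363, 0.335 and 0.596 at E12.5. It fell by 4.07 ± 0.79 on the log2 scale (adjusted p = 0.0146), the largest decrease of the 10, while its E11.5 values themselves spanned from 4.73 to 94.7. The forkhead factor Foxf2 of gut and other splanchnic mesenchyme (65.6, 47.3, 9.14 and 2.52, then 0.867, 0.181, 0.430 and 0.275) and Hand2, a factor of limb, heart and splanchnic mesoderm (47.9, 31.997, 5.72 and 2.50, then 0.379, 0.443, 0.717 and 0.321), had the same order of E11.5 libraries. Evx1, a homeobox gene of the tail bud and posterior mesoderm, read 41.5, 32.6, 3.65 and 1.09 at E11.5, and at E12.5 1 library listed it at 0.0542, the worth of 1 read, and the other 3 at 0. In these 4 genes E11.5 libraries 1 and 2 held the high values, libraries 3 and 4 were several-fold lower, and all E12.5 libraries were lower still.

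**Figure D2:**
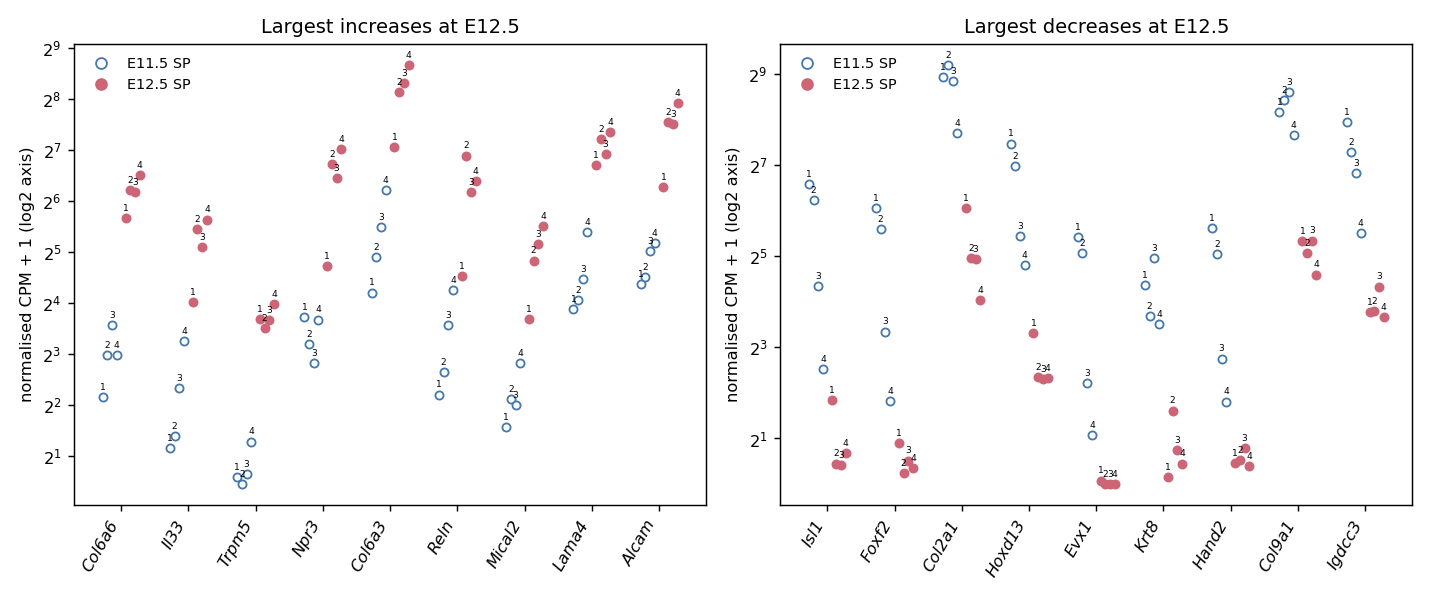
Normalised CPM of 9 of the 10 genes with the largest increase (left) and 9 of the 10 with the largest decrease (right) at E12.5 in each of the 8 SP libraries, on a log2(value + 1) axis. Each point is a library, open for E11.5 and filled for E12.5, with the replicate number as its label. The groups do not overlap for any of the genes plotted, since the rule that chose them required it, and the E11.5 values of Isl1, Foxf2, Evx1 and Hand2 spread over several units.

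The posterior Hox genes included members that fell and members that were not called. The Hox clusters are read from head to tail, group 13 marking the caudal end of the trunk, and group 11 genes are needed to specify the metanephric kidney. Of 13 posterior Hox genes tested (groups 9 to 13; 16 listed), 4 fell and 0 rose, beside 4.8% of all genes called lower, with a median of -0.22 (5 fell without E12.5 library 1, 38.5% beside 10.8%). Hoxd13 (chromosome 2, 74668310 to 74671599) read 176, 124, 42.1 and 26.8 at E11.5 and 8.94, 4.07, 3.92 and 3.99 at E12.5, and fell by 3.59 ± 0.54 (adjusted p = 0.0062). Hoxa13 read 27.1, 19.5, 4.81 and 1.27 and then 0.163, 0.202, 0.526 and 0.184 (adjusted p = 0.029), and both group 13 genes again had their high values in E11.5 libraries 1 and 2. Hoxa13, counted among those that fell, was under 1 in every E12.5 library and reached the test only through E11.5. Hoxd12 fell from 21.9 ± 6.57 to 9.999 ± 2.49 and Hoxc11 from 56.2 ± 16.5 to 32.5 ± 2.69. The other group 10 and 11 genes tested, Hoxa10, Hoxc10, Hoxd10, Hoxa11 and Hoxd11, were not called and had differences of -0.22 (Hoxd11) to 0.17 (Hoxa11). Of the group 9 genes, Hoxb9 read 217, 149, 86.2 and 50.4 and then 56.5, 48.5, 34.8 and 31.5, with overlap between the ages, and was not called with all 8 libraries but was without E12.5 library 1 (-1.51, adjusted p = 0.0399), while Hoxa9, Hoxc9 and Hoxd9 were not called. Among the 14 anterior Hox genes tested, 1 rose (Hoxc5, 0.79) and 1 fell (Hoxd1, -2.26), and the counts were the same without E12.5 library 1.

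Cartilage genes were lower at E12.5, and the 11 cartilage markers summed to 652 to 1323 at E11.5 and 134 to 305 at E12.5. Col2a1, the fibrillar collagen of cartilage, read 485, 582, 456 and 207 at E11.5 and 65.3, 30.2, 29.5 and 15.4 at E12.5, and Col9a1, which coats collagen II fibrils, read 283, 341, 385 and 199 and then 39.2, 32.6, 39.4 and 23.1. The changes were -3.67 ± 0.42 and -3.12 ± 0.23 (adjusted p = 0.00218 and 0.000519), with no overlap. Sox9, Sox5 and Sox6, the transcription factors that drive cartilage genes, also fell (-1.31, -1.16 and -2.20), and 5 of the 8 sclerotome and cartilage markers tested were called lower (62.5%, beside 4.8% of all genes), and 5 without E12.5 library 1 (beside 10.8%). In NP, Col2a1 had means of 343 and 403 at the 2 ages, and its change differed between SP and NP (-3.83 ± 0.53, adjusted p = 0.00104).

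Of 24 stromal identity genes, 5 rose and 2 fell, beside 3.73% and 4.8% of all genes, with a median of 0.31. Without E12.5 library 1, 11 rose and 3 fell, beside 10.7% and 10.8%. Ntn1, netrin-1, a guidance ligand secreted by the stroma, read 76.1, 93.6, 152 and 199 at E11.5 and 279, 755, 740.3 and 901 at E12.5 and rose by 2.33 ± 0.40 (adjusted p = 0.00881). Sall1, a zinc finger factor of the metanephric mesenchyme, read 44.5, 69.3, 54.2 and 73.2 and then 88.8, 239.5, 234 and 229. In both genes the first E12.5 library held the lowest E12.5 value, still above every E11.5 value. Smoc2, a matricellular protein, rose from 21.02 ± 11.003 to 67.6 ± 20.2, the orphan receptor Nr2f2 from 343 ± 28.8 to 610.3 ± 149, and Dcn, the proteoglycan decorin, from 11.8 ± 5.06 to 25.02 ± 2.61. The homeobox cofactors Meis3 and Pbx3 fell (-0.86 and -0.62). Foxd1 and Pdgfra were not called with all 8 libraries and were called higher without library 1 (0.84, adjusted p = 0.0332, and 0.79, adjusted p = 0.00136).

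Genes that mark stromal regions had 3 higher (12.5%, beside 3.73% of all genes) and 5 lower (20.8%, beside 4.8%) of 24 tested. Leaving out E12.5 library 1 gave 4 higher (16.7%, beside 10.7%) and 6 lower (25.0%, beside 10.8%). Tbx18, the T-box factor of the stroma around the ureter, fell from 104 ± 16.1 to 64.8 ± 6.03 (adjusted p = 0.0182), and Foxp1 fell by 1.42. Smoc1, a relative of Smoc2, read 32.4, 23.998, 21.3 and 12.2 at E11.5 and 2.49, 2.90, 4.59 and 2.84 at E12.5. It fell by 2.43 ± 0.27 while Smoc2 rose by 1.73 ± 0.34.

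Of 52 extracellular matrix genes tested, 13 rose (25.0%, beside 3.73% of all genes) and 1 fell, with a median change of 0.52. After E12.5 library 1 was left out, 22 rose (43.1%, beside 10.7%) and 2 fell. Collagen VI is assembled from 3 chains, and all of the common ones rose: Col6a1 read 36.8, 53.8, 81.6 and 101 and then 191, 229.9, 256 and 301, and Col6a2 read 36.9, 53.5, 79.1 and 99.9 and then 186, 204, 230.0 and 249. Col6a3, the third chain, read 17.5, 28.8, 44.2 and 73.1 at E11.5 and 132, 282, 318 and 407 at E12.5 (a rise of 2.85 ± 0.44, adjusted p = 0.00668).

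Some components of elastic fibres were among the matrix genes that rose, while Mfap2, Mfap4, Fbln1, Efemp1 and Efemp2, which also belong to these fibres, were not called. Of others in the list, Fbn1, Fbn2, Emilin1 and Lox overlapped between the ages, and Fbln2 read 29.9 to 52.6 at E11.5 and 58.7 to 109 at E12.5. Eln, elastin itself, rose from 22.1 ± 13.1 to 72.7 ± 6.03, Loxl1, which cross-links elastin, from 35.9 ± 15.4 to 109 ± 8.77, Fbln5, which tethers it to cells, from 37.8 ± 7.88 to 64.2 ± 10.1, and the microfibril protein Mfap5 from 1.23 ± 0.407 to 4.89 ± 0.336. The small leucine-rich proteoglycan Ogn was under 0.32 in every E11.5 library, reached the test only through E12.5 and read 2.60, 6.17, 4.45 and 7.20 at E12.5. Postn, periostin, rose from 82.9 ± 17.3 to 168 ± 42.1. The 1 matrix gene that fell was Npnt, nephronectin, the ligand of the ITGA8 integrin, which is made mainly by the UB: it read 34.7, 25.3, 21.97 and 7.88 and then 1.25, 4.41, 2.82 and 2.66.

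Genes of retinoic acid, which the stroma makes and which keeps Ret expressed in the UB, had 4 higher (23.5%, beside 3.73% of all genes) and 1 lower (5.88%, beside 4.8%) of 17 tested. Without E12.5 library 1, 4 were higher (23.5%, beside 10.7%) and 2 lower (11.8%, beside 10.8%). Aldh1a2, the enzyme that makes retinoic acid in the stroma, read 664, 605, 784 and 983 at E11.5 and 965, 1383, 1158 and 1302 at E12.5, with E11.5 library 4 above E12.5 library 1 (0.67 ± 0.18, adjusted p = 0.0457). Rarb, a receptor that retinoic acid itself induces, rose from 95.6 ± 2.58 to 161 ± 25.4, the binding protein Crabp1 from 232 ± 49.5 to 389 ± 35.6, and the retinal reductase Dhrs3 from 38.6 ± 14.6 to 109 ± 33.7. Rdh10, which makes retinal, the substrate of Aldh1a2, fell from 249.98 ± 60.9 to 143 ± 15.3.

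Mural and smooth muscle genes had 3 higher (13.6%, beside 3.73% of all genes) and 2 lower (9.09%, beside 4.8%) of 22 tested. Leaving out E12.5 library 1 gave 7 higher (35.0%, beside 10.7%) and 3 lower (15.0%, beside 10.8%). Rgs5, a pericyte regulator of G-protein signalling, read 145, 155, 224 and 153 at E11.5 and 43.3, 54.1, 38.97 and 39.6 at E12.5 (-1.91 ± 0.17, adjusted p = 0.000852), and the adhesion molecule Mcam read 165, 168, 112 and 124 and then 104, 48.9, 60.1 and 47.7. The pericyte potassium channel Kcnj8, which reached the test only through E12.5, rose from under 1 in each E11.5 library to 2.11 to 3.81, the proteoglycan Cspg4 (NG2) rose by 1.23 and the myosin light chain Myl9 by 0.63. Of the contractile genes, Acta2 (11.2 to 26.3 and 16.5 to 32.5) and Myh11 (0.260 to 1.70 and 0.766 to 1.15) were low at both ages, Tagln (54.7 to 141 and 35.9 to 63.4) and Tpm1 (409.9 to 906 and 475 to 582) were higher, and none of these 4 was called.

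**Figure D3:**
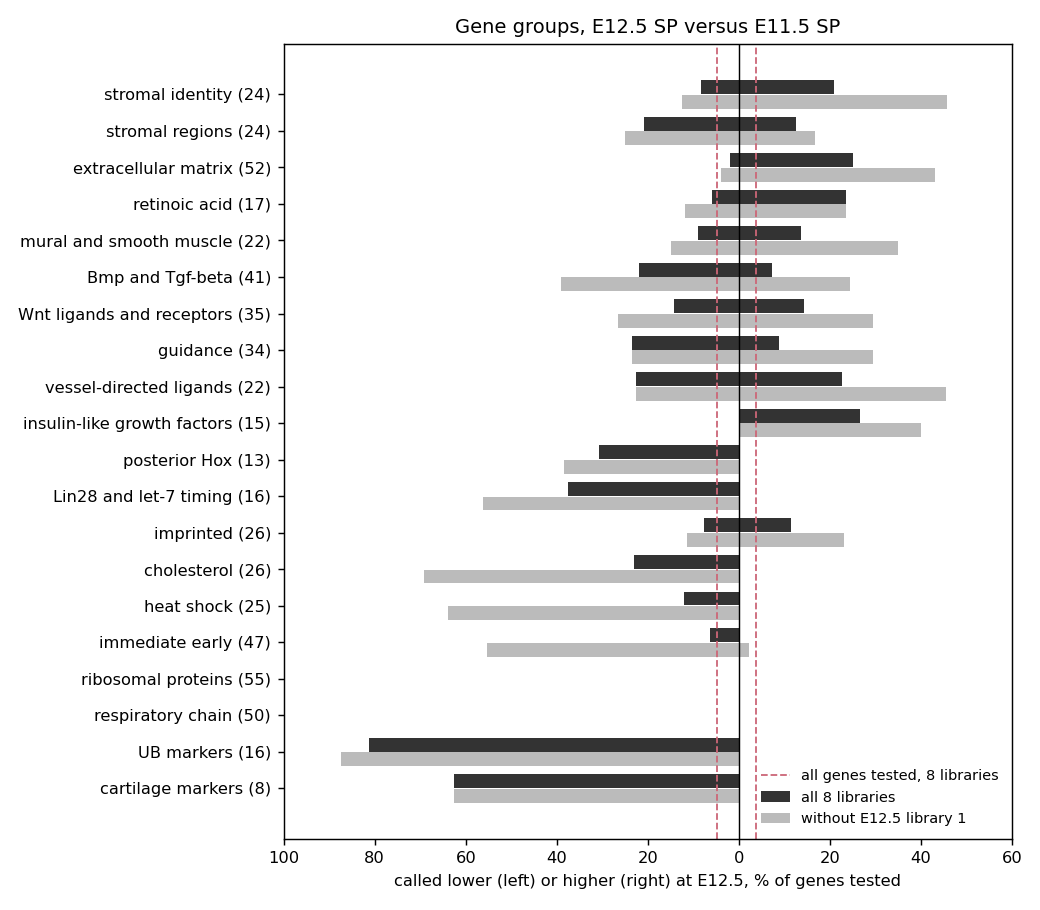
Percentage of the tested members of each gene group that were called higher (right) or lower (left) at E12.5, with all 8 libraries (dark bars) and without E12.5 library 1 (light bars), the number tested beside the name. Vertical lines mark the percentage over all genes tested, 3.73% higher and 4.8% lower with all 8 libraries. The light bars are to be read beside 10.7% higher and 10.8% lower, which no line marks. Matrix genes stand at 25.0% higher, and the cholesterol, heat-shock and immediate-early groups change most, of those plotted, when the library is left out.

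Bmp and Tgf-beta genes had 3 higher (7.32%, beside 3.73% of all genes) and 9 lower (22.0%, beside 4.8%) of 41 tested. Without E12.5 library 1, 10 were higher (24.4%, beside 10.7%) and 16 lower (39.0%, beside 10.8%). Several that fell were secreted antagonists. Grem1, gremlin, which holds back Bmp4 so that the bud can grow, read 72.9, 69.6, 33.2 and 23.9 at E11.5 and 13.2, 3.77, 4.11 and 3.67 at E12.5 and fell by 2.86 ± 0.44 (adjusted p = 0.00692). Fst, follistatin, read 255, 212, 186 and 100.2 and then 49.996, 23.1, 23.6 and 18.995, and the chordin relative Chrdl1 read 8.18, 11.1, 11.2 and 6.92 and then 1.25, 1.53, 1.48 and 0.918. All 3 had no overlap between the ages. Of the ligands, Bmp7 fell by 1.63 and Bmp3 rose by 1.36. Bmp4 read 89.2, 79.1, 41.4 and 29.8 at E11.5 and 43.5, 15.5, 19.99 and 15.6 at E12.5 and was called without library 1 (-1.63, adjusted p = 0.0139). Id1, a direct target of Bmp signalling, rose from 89.5 ± 33.97 to 191 ± 26.4. Among other targets, Id2, Id3, Id4, Smad6 and Smad7 overlapped between the ages. Msx2 read lower at E12.5 (3.62 to 22.4 at E11.5 and 0.430 to 2.55 at E12.5).

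Wnt ligands, receptors and secreted inhibitors had 5 higher (14.3%, beside 3.73% of all genes) and 5 lower (14.3%, beside 4.8%) of 35 tested. Leaving out E12.5 library 1 gave 10 higher (29.4%, beside 10.7%) and 9 lower (26.5%, beside 10.8%). The decoy receptors Sfrp1 and Sfrp4 rose (0.68 and 0.92) and Sfrp2 and Frzb fell (-0.84 and -1.19). Of the ligands, Wnt2 rose by 0.94 while Wnt2b and Wnt6 fell (-1.33 and -1.08), and the Wnt amplifier Rspo1 fell by 1.22. Of 12 beta-catenin targets tested, 1 rose (8.33%) and 1 fell (8.33%), or 1 and 2 (16.7%, beside 10.8%) without E12.5 library 1: Tcf7 fell from 51.5 ± 15.4 to 24.03 ± 2.92 and Ccnd1 rose from 213 ± 34.3 to 349.7 ± 35.99.

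Among signals to the UB, Gdnf, the growth factor that drives its branching and that is made by NP and by Foxd1 stroma, read 37.2, 46.3, 35.5 and 44.1 at E11.5 and 91.2, 75.5, 66.1 and 86.9 at E12.5. It rose by 0.95 ± 0.15 (adjusted p = 0.00655) with no overlap, against a change of 0.15 in NP, and the difference between these changes was not called (0.80 ± 0.22, adjusted p = 0.0692). Fgf10, another branching signal, fell by 0.75, and Etv1, a transcription factor of the Fgf response, fell by 1.06, while its relatives Etv4 (27.2 to 80.96 and 54.2 to 78.9) and Etv5 (47.2 to 100.1 and 51.1 to 91.05) were not called. They belong to 18 Fgf genes tested, of which 2 fell (11.1%, beside 4.8%) and 0 rose, or 3 (16.7%) and 1 (5.56%) without E12.5 library 1. Of 23 genes of the Gdnf and Ret group 3 rose (13%, beside 3.73%) and 4 fell (17.4%, beside 4.8%), or 6 (26.1%) each way without E12.5 library 1. Of transcription factors known to act on Gdnf in NP, Sall1 rose (above), Hoxa11 and Hoxd11 were not called, and Eya1, Six2 and Osr1 fell, Eya1 at 35.8, 38.7, 23.003 and 16.5 and then 3.85, 9.11, 6.17 and 3.12, Six2 at 29.5, 21.1, 14.5 and 16.98 and then 4.39, 6.35, 1.15 and 1.19, and Osr1 at 40.3, 33.4, 22.5 and 10.3 and then 7.47, 6.55, 6.22 and 6.65. Insulin-like growth factor genes had 0 lower and 4 higher of 15 (26.7%, beside 3.73%, or 6 and 40.0%, beside 10.7%, without E12.5 library 1): the binding proteins Igfbp5 (1.51), Igfbp6 (2.20) and Igfbp7 (1.79) and Pappa (2.44), the protease that frees the factors from them. Pappa read 15.2, 19.3, 23.2 and 40.4 at E11.5 and 70.3, 169.98, 149.9 and 154 at E12.5. The growth factor Igf2 itself was among the most abundant transcripts at both ages (2860 to 4051 and 3801 to 5202) and was not called.

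Guidance and vessel-directed genes moved in both directions. Efnb2, an ephrin of arteries and boundaries, read 207, 219, 165 and 86.7 at E11.5 and 71.5, 38.7, 34.2 and 33.2 at E12.5, and its receptor Epha4 read 249, 253, 187 and 96.8 and then 65.8, 68.3, 71.6 and 59.4. Sema3a, a repulsive semaphorin, read 11.1, 9.39, 7.47 and 16.4 and then 18.9, 73.1, 56.3 and 70.8, and Efnb1 rose by 1.182. In all, guidance genes had 3 higher (8.82%, beside 3.73% of all genes) and 8 lower (23.5%, beside 4.8%) of 34 tested. Without E12.5 library 1, 10 were higher (29.4%, beside 10.7%) and 8 lower (23.5%, beside 10.8%). Of 22 genes for ligands that act on vessels, 5 rose, among them Apln (1.12) and Pdgfd (1.24), and 5 fell, among them the lymphatic factor Vegfc (-0.70), Pgf (-1.37) and Angpt2 (-0.87). Both shares were 22.7%, beside 3.73% and 4.8%, and without E12.5 library 1 10 were higher (45.5%, beside 10.7%) and 5 lower (22.7%, beside 10.8%). Vegfa was not called (0.35, adjusted p = 0.118).

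Genes of the Lin28 and let-7 timing network, which are lost as tissues mature, had 6 members lower (37.5%, beside 4.8% of all genes) and 0 higher of 16, with a median of -0.74 and 15 of 16 changes below 0. The count was 9 (56.2%, beside 10.8%) without E12.5 library 1. Arid3b, a DNA-binding let-7 target, read 99.5, 94.6, 69.9 and 51.7 at E11.5 and 26.5, 23.2, 27.02 and 20.6 at E12.5, and Hmga2, the chromatin protein of growing tissue, read 1657, 1459, 1476 and 1374 and then 619, 1094, 962 and 908. The changes were -1.62 ± 0.21 and -0.76 ± 0.17 (adjusted p = 0.00322 and 0.0278). The RNA-binding protein Igf2bp1 (-0.74), the nuclear receptor Nr6a1 (-1.178), the DNA methyltransferase Dnmt3b (-0.69) and Hmga1 (-0.73) fell as well. Lin28b read 41.98, 24.97, 15.1 and 8.09 and then 8.29, 6.69, 7.65 and 6.47 (adjusted p = 0.0773), and Sall4 read 58.4, 37.01, 5.16 and 1.61 and then 0.704, 0.786, 0.717 and 0.459 (adjusted p = 0.0549), both highest in E11.5 libraries 1 and 2.

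Imprinted genes of fetal growth had 3 higher (11.5%, beside 3.73% of all genes) and 2 lower (7.69%, beside 4.8%) of 26 tested. Leaving out E12.5 library 1 gave 6 higher (23.1%, beside 10.7%) and 3 lower (11.5%, beside 10.8%). Peg10, a retrotransposon-derived gene, read 867, 963, 1119 and 910.4 at E11.5 and 359, 392, 393 and 286 at E12.5 and fell by 1.44 ± 0.14 (adjusted p = 0.00129). Magel2 fell by 1.45. Plagl1, a zinc finger factor, rose from 331 ± 62.9 to 614 ± 93.3 and Mest from 1708 ± 279 to 2812 ± 494. Dlk1, a membrane protein of immature mesenchyme, read 97.3, 70.1, 68.1 and 68.3 and then 93.8, 125, 139.6 and 161.

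None of 55 ribosomal protein genes and none of 50 respiratory chain genes was called with limma, with medians of 0.05 and 0.05, and leaving out E12.5 library 1 gave 0 in both groups as well. With edgeR, which called 8.35% of all genes (3.78% higher and 4.56% lower), the counts were 0 and 0. At an unadjusted limma p under 0.05 they were 0 and 3. Of 47 DNA replication genes 2 rose, Ccnd1 and the thymidine kinase Tk1 (0.88), and of 40 mitotic genes 1 rose, Aspm (0.76), which holds the spindle poles (shares of 4.26% and 2.5%, beside 3.73%). The counts without E12.5 library 1 were 4 replication genes higher (8.51%, beside 10.7%) and 5 lower (10.6%, beside 10.8%), and 5 mitotic genes higher (12.5%). Of 14 inhibitors of the cell cycle tested 2 rose (14.3%, beside 3.73%) and 1 fell (7.14%, beside 4.8%), or 3 (21.4%) each way without E12.5 library 1: the retinoblastoma relative Rbl2 rose (1.02) with Cdkn2c, and Cdkn1a (p21) read 64.7, 51.1, 51.6 and 41.04 at E11.5 and 31.3, 11.8, 7.41 and 10.9 at E12.5. Of 41 hypoxia and glycolysis genes 4 rose (9.76%, beside 3.73%): Egln3 (1.68), Ankrd37 (1.53), Hk2 (1.12) and the glucose transporter Slc2a1 (0.53). The lactate dehydrogenase subunit gene Ldhb was the 1 that fell, and without E12.5 library 1 the group had 10 higher (24.4%, beside 10.7%) and 1 lower.

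In the heat-shock, immediate-early and cholesterol groups, E12.5 library 1 stood far from the other E12.5 libraries. Hspa1a, the inducible Hsp70, read 103, 112, 149.6 and 121 at E11.5, 512 in E12.5 library 1 and 6.65 to 7.32 in the other E12.5 libraries. Its near copy Hspa1b had the same pattern, and how reads were divided between them is not given in the sources used here. The co-chaperone Dnajb1 read 229 to 289.98 at E11.5, 1205 in library 1 and 69.1 to 88.3 in the rest, and Hsph1 read 703 to 892, 1374 and 201 to 234. With all 8 libraries 3 of 25 heat-shock genes fell (12.0%, beside 4.8%) and 0 rose, and without library 1, 16 fell (64.0%, beside 10.8%).

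Immediate-early genes, which tissue dissociation is known to raise, had 3 lower (6.38%, beside 4.8% of all genes) and 0 higher of 47 tested with all 8 libraries, and 26 lower (55.3%, beside 10.8%) and 1 higher without E12.5 library 1. Fos, the founding member of AP-1, read 175 to 248 at E11.5, 1009 in library 1 and 179.6 to 302 in the other E12.5 libraries. Maff, a small Maf factor, read 278 to 346, 489 and 57.1 to 65.6. Fos was thus raised in library 1 against both groups, while Maff was also high at E11.5.

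Of 26 cholesterol synthesis and uptake genes tested, 6 fell (23.1%, beside 4.8%), 0 rose, and all 26 changes were below 0, with a median of -0.91. Without E12.5 library 1, 18 fell (69.2%, beside 10.8%). With edgeR 3 fell, and the summed level was 4955 in E12.5 library 1 and 1648 to 1965 in the other E12.5 libraries, against 3632 to 6710 at E11.5. Srebf2, the transcription factor that drives the pathway, read 683, 771, 876 and 899 at E11.5 and 566, 433, 448 and 379.5 at E12.5, with no overlap, and fell by 0.83 ± 0.15 (adjusted p = 0.0112). Cyp51, lanosterol demethylase, read 483, 492, 885 and 865 and then 524, 217, 162 and 162. Insig1, which holds the pathway's sensor in the endoplasmic reticulum, read 231 to 479 at E11.5, 494 in library 1 and 49.6 to 60.03 in the rest. For Insig1, library 1 was above every E11.5 library and the other 3 were below them all.

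Some of these genes were also high in the E12.5 libraries numbered 1 of the other sorted cell types. In NP, Hspa1a read 37.1, 13.3, 28.3 and 19.04 in the E11.5 libraries, 194 in E12.5 library 1 and 1.10 to 1.183 in the others. In UB it read 165 to 188 at E11.5, 43.2 in E12.5 library 1 and 5.59 to 7.73 in the others. The UB ages given here are those of the sample titles, since the labels of UB libraries disagree on age. Insig1 in NP read 144 to 216 at E11.5, 167 in E12.5 library 1 and 29.0 to 39.2 in the others. For Hspa1a, E12.5 library 1 was thus above libraries 2, 3 and 4 of its own cell type in SP, NP and UB, and those were below all E11.5 libraries of the type. What set library 1 apart was not tested.

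**Figure D4:**
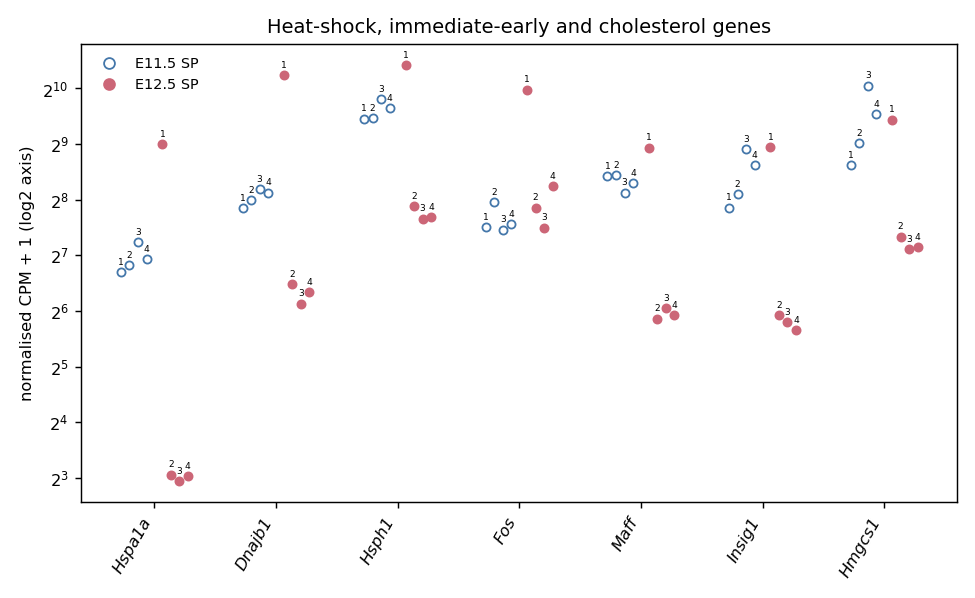
Normalised CPM (log2 axis) of Hspa1a, Dnajb1, Hsph1, Fos, Maff, Insig1 and Hmgcs1 in each of the 8 SP libraries, open circles for E11.5 and filled for E12.5, with the replicate number as label. E12.5 library 1 reads 512 for Hspa1a, where the other E12.5 libraries read 6.65 to 7.32, and lies above libraries 2, 3 and 4 in all 7 genes.

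Some heat-shock genes and 1 cholesterol gene carry, near their start, the letters that the heat-shock or sterol factor is known to bind. Hspa1a, Hspa1b, Dnajb1, Insig1 and Cyp51 were not among the genes with a match, for want of the element or of a window. The heat-shock element was searched as 3 alternating units, GAA, TTC and GAA, each 2 bases of any kind apart, and as its reverse complement, in RefSeq promoter windows of 300 bases on GRCm38.p6, and was present in 198 of 32851 windows (0.603%). It was found for 5 of the 22 heat-shock genes with a window: Hspd1 and Hspe1, which share it, and Hsph1, Chordc1 and Dnajb6. The stretches are shown 5′ to 3′ on the strand of the gene, the element in capitals, because these genes differ in their values. Hsph1 was among the genes highest in E12.5 library 1, Chordc1 fell with all libraries (-0.68, adjusted p = 0.0293), and Dnajb6 read 49.2 to 58.5 and 46.1 to 57.6 and was not called.
Hsph1 (chr5:149636280-149636308, minus strand): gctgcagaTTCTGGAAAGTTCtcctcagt
Chordc1 (chr9:18292255-18292283, plus strand): tgcaaccgGAACGTTCGGGAAaattcctg
Hspd1 (chr1:55088056-55088084, minus strand): gcggggccTTCCGGAAGGTTCtagaacgg
Dnajb6 (chr5:29735844-29735872, plus strand): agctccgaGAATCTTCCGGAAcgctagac
The sterol element was searched as TCACNCCAC on both strands and was present in 408 windows (1.24%). Of 18 cholesterol genes with a window it was found for Hmgcs1, the enzyme that commits acetyl-CoA to the pathway, which read 392, 515, 1060 and 741 at E11.5 and 693, 161, 138 and 141 at E12.5.
Hmgcs1 (chr13:119690206-119690230, plus strand): tcaccgtcTCACCCCACttcccagg
A match describes letters in the window only.

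Markers of the UB, which the gate was set to remove, were lower at E12.5. Of 16 UB markers tested 13 were called lower and 0 higher, beside 4.8% of all genes called lower, with a median of -1.97 (14 lower without E12.5 library 1). Krt8, a simple-epithelial keratin, read 19.7, 11.8, 29.9 and 10.4 at E11.5 and 0.108, 2.06, 0.669 and 0.367 at E12.5, Cdh1, E-cadherin, read 10.04, 5.64, 17.7 and 5.20 and then 0.325, 3.16, 0.669 and 0.505, and Wnt9b, the bud's signal to NP, read 3.504, 2.43, 7.15 and 2.29 and then 0.0542, 0.746, 0.0956 and 0. Wnt9b, counted among those called lower, was under 1 in every E12.5 library and reached the test only through E11.5. The summed level of the 18 UB markers was 180 to 394 at E11.5 and 93.1 to 124 at E12.5, against means of 8120 and 6117 in the UB libraries titled E11.5 and E12.5. A large part of each SP sum was Wnt11, which was not called and overlapped between the ages (161, 143, 101 and 74.5, then 82.4, 52.9, 59.1 and 62.3). The sum was 394, 316, 385 and 180 in E11.5 libraries 1 to 4.

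Nephron progenitor markers summed to 309 to 341 at E11.5 and 265 to 386 at E12.5, against means of 2788 and 3501 in NP, and of 11 tested 1 was called higher (Gdnf; 9.09%, beside 3.73% of all genes) and 3 lower (Six2 and Eya1 among them; 27.3%, beside 4.8%). The counts without E12.5 library 1 were 2 (18.2%, beside 10.7%) and 4 (36.4%, beside 10.8%). Endothelial markers summed to 68.2 to 122 and 60.8 to 79.4. Plvap, Cd34 and Kdr were called lower (27.3%, beside 4.8%) and the receptor Tek higher (9.09%, beside 3.73%) of 11 tested, and the counts were the same without E12.5 library 1, while Pecam1, which encodes the CD31 of the gate, read 0.634, 0.827, 1.91 and 6.01 and then 3.95, 2.90, 1.67 and 1.19. Haemoglobin and other erythroid genes summed to 118 to 1630 at E11.5 and 322 to 2985 at E12.5, with 0 of 9 called (3 higher without library 1, 33.3% beside 10.7% of all genes). Macrophage genes were near 0, with 1 of 17 passing the filter and Ptprc at 0.16 or less in every library. Mesothelial, adrenal and gonadal, and neural markers had 3 of 5 (60%), 1 of 3 (33.3%) and 3 of 6 (50.0%) called lower, beside 4.8% of all genes and with the same counts without E12.5 library 1 (beside 10.8%), with Krt19 counted for UB and mesothelium alike, among them Upk3b (4.74, 3.96, 4.25 and 2.50, then 0, 0.0806, 0.0956 and 0.0459) and Gata4 (13.7, 11.5, 7.19 and 2.99, then 0.812, 0.383, 0.0478 and 0.0918). The lists held 10, 12 and 16 genes, most of the others being under the filter, and 2 of the mesothelial and 1 of the adrenal and gonadal genes called lower, Upk3b and Gata4 included, had reached the test only through E11.5. Of the mesothelial markers 0 were called higher with all 8 libraries and 1 was without E12.5 library 1 (20%, beside 10.7%). The mesothelial sums were 149.9 to 169.8 at E11.5 and 120 to 251 at E12.5, those of the adrenal and gonadal markers 122 to 146 and 110 to 189, and those of the neural markers 60.6 to 82.5 and 24.2 to 39.3. The part of these cells in the changes described above was not tested.

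The change with age was then set against that of NP, sorted as ITGA8 high, PDGFRA low cells from pooled kidneys of the same ages. In NP, 850 of 13414 genes were called (6.34%), 368 higher and 482 lower. The difference between the changes, tested as an interaction over 16 libraries with no pairing of same-numbered SP and NP libraries, was called for 388 of 14438 genes (2.69%), 157 with the SP change above the NP change (1.09%) and 231 with it below (1.6%). Without E12.5 SP library 1 the difference was called for 820 genes. Differences between SP and NP that are given as not called rest on this unpaired fit.

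Dlk1 had a called difference in opposite directions. It rose in SP (0.75) and fell in NP (-2.35, adjusted p = 0.00218), a difference of 3.10 ± 0.33 (adjusted p = 0.000124). Smoc2 likewise rose in SP and fell in NP (-1.13, adjusted p = 0.00298), a difference of 2.86 ± 0.40 (adjusted p = 0.00108). Emx2, a homeobox gene of the UB and early nephron, read 9.54, 5.81, 7.71 and 2.18 at E11.5 and 0.271, 0.968, 0.287 and 0.229 at E12.5 in SP and had means of 0.473 and 5.30 in NP, a difference of -4.38 ± 0.42 (adjusted p = 6.83e-05). In SP it was under 1 in every E12.5 library and reached the SP test only through E11.5. Bmp7 (a difference of -1.82), Efnb2 (-2.15), Osr1 (-2.11) and Eya1 (-2.76) fell in SP while their NP changes of 0.18, 0.25, 0.43 and 0.58 were not below 0.

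Of 52 matrix genes, 8 had a called difference above NP (15.4%, beside 1.09% of all genes) and 1 below, among them Col6a1 (1.83) and Postn (1.34). Creb3l1, a transcription factor of collagen secretion, had a called difference of 1.83 without being called in SP itself (0.51, adjusted p = 0.0572). Of 15 insulin-like growth factor genes, 4 had called differences (26.7%), all above NP: Igfbp5 (1.63), Igfbp6 (2.74), Pappa (2.47) and Igfbp3 (1.32), the last not called in SP itself (0.52). For the 26 cholesterol and 26 heat-shock genes 0 differences were called with limma, beside 2.69% of all genes. Groups of 26 are too small to tell 0 from that share. Without E12.5 SP library 1, a fit that called 820 genes, 0 were called as well. That fit kept E12.5 NP library 1, which read 194 for Hspa1a against 1.10 to 1.183 in the other E12.5 NP libraries. In NP 13 of 26 (50.0%) and 6 of 24 (25.0%) of these genes were called lower, beside 3.59% of all genes. Fst and Igdcc3, a receptor of the immunoglobulin family, fell in both cell types: Fst (-2.69 in SP and -2.94 in NP) and Igdcc3 (-2.997 and -2.21), with differences of 0.26 ± 0.51 and -0.79 ± 0.58 that were not called.

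**Figure D5:**
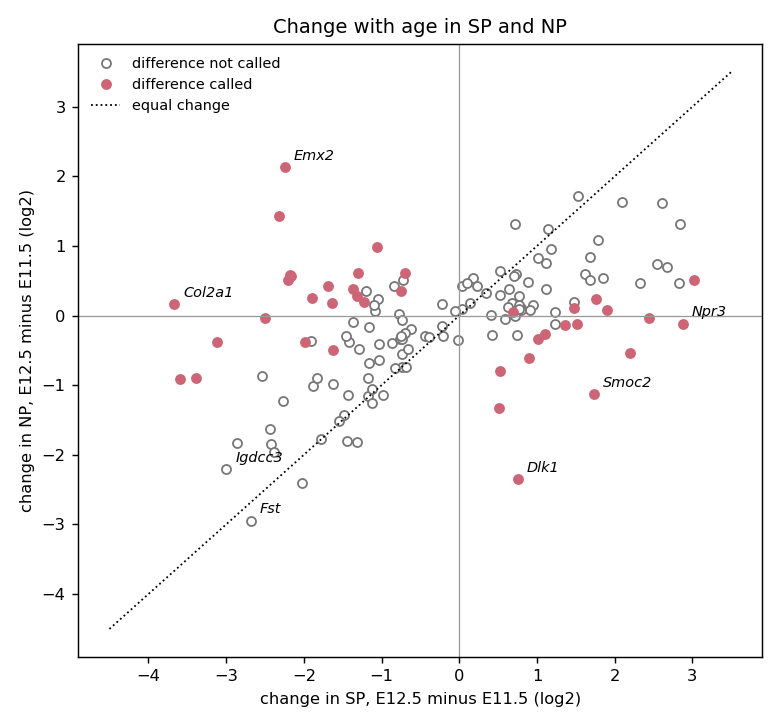
Change from E11.5 to E12.5 (log2 of normalised CPM + 1) in SP (horizontal) and NP (vertical) for the genes named in the text that were tested in both, with lines at 0 and a dotted line of equal change. Filled points have a called difference between the changes. Dlk1, Smoc2 and Emx2 lie far from the line of equal change, and Fst and Igdcc3 lie near it.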

How the data were processed

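Normalised gene values of 36 mouse libraries were used, of which 8 SP libraries enter the main comparison. Trimming (Cutadapt), alignment (STAR) and normalisation (edgeR) were done by the authors, and the deposited values are a signal per gene, the CPM of a library rescaled by its own factor. The genome is written as GRCh38 in the sources used here, but the gene IDs are mouse Ensembl IDs, and 22649 of 22761 (99.5%) were found in GENCODE vM21 (GRCm38), which gave names and coordinates. How reads were assigned to genes or strands is not given in the sources used here. A second deposited table holds the same values with the authors' own group means, fold changes and p-values and was not used.

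Every value was a whole multiple of the value of 1 read (100% within 0.001), so depth and reads could be recovered. The SP libraries held 18.6 to 52.5 M reads, and 3 reads were worth 0.0605 to 0.163 normalised CPM, a limit that covers counting error only. Genes that reached 1 in 4 or more of the 8 libraries were compared with limma 3.58.1 (R 4.3.3) on log2(value + 1), with Benjamini-Hochberg adjustment over all genes tested. The difference from NP was tested as an interaction over 16 libraries. UB libraries were left out of it, since their labels disagree on age. On simulated counts for 13633 genes of this comparison, 200 of them changed, limma recovered 89% of changes of 2 and 57% of changes of 1 on the log2 scale. Alternatives were edgeR 4.0.16 and DESeq2 1.42.0 on the recovered reads, other scalings, filters and a pseudocount of 0.1, all 36 libraries in a fit, a replicate block and leaving out each library.

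Genes were named by a rule: the 10 largest changes in each direction among genes called with and without E12.5 library 1, with a mean of at least 5 and groups that did not overlap, then members of gene lists, and Foxd1 and the sort markers. A few genes that the rule names are not reported here. The members and lists were chosen with earlier results of these data known. Promoter windows were taken from RefSeq (GRCm38.p6), 250 bases before to 50 after each gene start. Same-numbered E11.5 and E12.5 SP libraries did not deviate together (correlations of -0.57 to 0.18), so the numbers were not used as pairs.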

Additional observations from a re-analysis of the deposited data

Results flagged for a closer look

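A library lay far from the other 3 of its group in 32 of 338 sets of 4 values examined (169 named genes at 2 ages), by the share of the range on the log2 scale taken up by the gap to its nearest neighbour (Dixon's criterion, which chance alone meets in about 1 in 20 groups). The library was E12.5 library 1 in 22 of them. It was the high one, with the share of the range in brackets, for Hoxd13 (0.957), Evx1 (1), Grem1 (0.919), Dnmt3b (0.895), Hspa1a (0.980), Hspa1b (0.960), Dnajb1 (0.915), Hsph1 (0.921), Maff (0.936), Insig1 (0.917), Hmgcs1 (0.904) and H2-K1 (0.870). For Evx1 the share is fixed by counting, since library 1 held 1 read (0.0542) and the other E12.5 libraries held 0. It was the low one for Pdgfra (0.891), Hoxd12 (0.895), Ntn1 (0.832), Sall1 (0.956), Nr2f2 (0.988), Dhrs3 (0.857), Cspg4 (0.830), Frzb (0.932), Pappa (0.857) and Efnb1 (0.924). The other cases were Hoxa13 with E12.5 library 3 high (0.879), Sox6 with E11.5 library 4 low (0.861), Rgs5 with E11.5 library 3 high (0.852), Id1 with E11.5 library 4 high (0.937), Rspo1 with E11.5 library 1 high (0.964), Dlk1 with E11.5 library 1 high (0.920), Wnt9b with E12.5 library 2 high (0.836), Kdr with E11.5 library 4 high (0.946), Emx2 with E12.5 library 2 high (0.903) and Actc1 with E12.5 library 3 high (0.877). Hoxa13, Wnt9b and Emx2 were under 1 in every E12.5 library.

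The change from E11.5 to E12.5 differed between SP and NP, by the interaction term of the limma fit at an adjusted p under 0.05, for 48 of the 169 named genes, beside 2.69% of all genes tested. The named genes were chosen largely for their SP changes, which favours such a difference. The difference of the changes (SP minus NP, log2) was above 0 for Dlk1 (3.10), Npr3 (2.99), Smoc2 (2.86), Trpm5 (2.78), Igfbp6 (2.74), Col6a6 (2.65), Il33 (2.51), Pappa (2.47), Ogn (2.24), Col6a1 (1.83), Creb3l1 (1.83), Igfbp5 (1.63), Col6a2 (1.52), Plagl1 (1.50003), Bmp3 (1.49872), Tek (1.39), Dcn (1.38), Tnnt1 (1.38), Mfap5 (1.35), Postn (1.34), Igfbp3 (1.32), Sfrp4 (1.23) and Sfrp1 (0.64). It was below 0 for Emx2 (-4.38), Col2a1 (-3.83), Cdh1 (-3.74), Eya1 (-2.76), Col9a1 (-2.73), Chrdl1 (-2.72), Sox6 (-2.72), Hoxd13 (-2.68), Krt8 (-2.49), Six2 (-2.47), Wnt9b (-2.28), Upk3b (-2.20), Efnb2 (-2.15), Osr1 (-2.11), Etv1 (-2.04), Bmp4 (-1.91), Bmp7 (-1.82), Pgf (-1.75), Cd34 (-1.60), Plvap (-1.60), Rspo1 (-1.41), Vegfc (-1.31), Angpt2 (-1.17), Arid3b (-1.13) and Fgf10 (-1.10). Cdh1 and Wnt9b belong to the UB markers described above and Plvap, Cd34 and Tek to the endothelial markers.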

How the results depend on the processing

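Of the 169 named genes tested, 134 were called, and 0 changed direction among calls under any alternative run. The 1162 called genes (508 higher, 654 lower) became 2097 (1002 and 1095) with DESeq2, 2987 (1284 and 1703) with all 36 libraries in the fit and 762 (331 and 431) with a filter of 5. EdgeR, no filter, a pseudocount of 0.1 and upper-quartile or quantile scaling gave 1024 to 1154. Leaving out a library gave 392 to 2889 genes (141 to 1442 higher, 236 to 1447 lower), the highest without E12.5 library 1, 1446 without E11.5 library 4 and 392 to 617 without any of the others. Without both E12.5 library 1 and E11.5 library 4, a choice made after seeing the data, 3870 genes were called (2009 and 1861). The distinct members of all gene lists that were called numbered 170, 284 with all 36 libraries, 408 without both libraries and 75 to 328 when a library was left out. A replicate block on the number in the titles gave 787 (355 and 432), and 21 of the 134 named calls were lost. The numbers do not pair these libraries, and 0 of 4 correlated best with their own number.

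The 388 genes whose change differed between SP and NP became 222 with a filter of 5, and 204 to 820 when a library was left out, the highest without E12.5 SP library 1 and 669 without E11.5 SP library 4. The block by age and number gave 924. Same-numbered SP and NP libraries correlated at 0.54 to 0.70 at E12.5, each best with its own number, and at -0.35 to 0.51 at E11.5, where 2 of 4 did, a hint from the data and not from the design. Without E12.5 library 4, 63 of 132 named calls tested were lost, and without library 1, 1 was. The causes of these shifts were not tested. Depth limited genes under 0.163 normalised CPM, the worth of 3 reads in the shallowest SP library.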

Other observations

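The groups below are read beside 3.73% of all genes called higher and 4.8% called lower, or 10.7% and 10.8% without E12.5 library 1. Of 19 Hippo and Yap genes 2 rose (10.5%) and 0 fell (2 and 4 without E12.5 library 1, 11.1% and 22.2%): Axl, a receptor tyrosine kinase, read 111, 141, 156 and 181 at E11.5 and 185, 267, 238 and 265 at E12.5, and Fjx1 rose by 0.59. Of 15 hedgehog genes 2 rose, the co-receptor Boc (0.91) and the forkhead factor Foxl1 (1.23), and Foxf2 fell (13.3% and 6.67%; 5 higher and 1 lower without E12.5 library 1, 35.7% and 7.14%). Of 16 Notch genes 1 fell (6.25%; 5 without E12.5 library 1, 31.2%), the effector Hey1, which read 35.3, 35.9, 62.3 and 51.1 and then 25.7, 16.6, 21.9 and 18.7. Of 20 p53 targets (10% lower; 1 higher and 6 lower without E12.5 library 1, 5.0% and 30.0%) Cdkn1a and Gdf15 (-1.12) fell, and of 10 interferon and antigen-presentation genes (4 lower without E12.5 library 1, 44.4%) 2 fell (20%), among them the class I histocompatibility gene H2-K1. H2-K1 read 69.4, 67.9, 38.7 and 40.6 at E11.5 and 47.02, 6.55, 8.61 and 7.57 at E12.5, where library 1 lay among the E11.5 values. Gdf15 and Foxf2, counted above as lower, were under 1 in every E12.5 library and reached the test only through E11.5.

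Of 15 genes of paraxial and early mesoderm 4 fell and 0 rose (26.7% lower; 6 fell without E12.5 library 1, 42.9%), with a median of -0.63: Hand2, Osr1, Prrx2 (63.3, 55.9, 34.6 and 46.7, then 32.6, 20.8, 25.3 and 20.3) and Meox2 (-0.73). Of these, Hand2 reached the test only through E11.5. None of the 8 central Hox genes was called with limma or with edgeR, 2 had an unadjusted p under 0.05, and 1 was called lower without E12.5 library 1. Of 2 skeletal muscle markers tested Tnnt1 rose (1.48) and Actc1 fell (-1.12), and of 5 sex-linked genes 0 were called with limma, with 1 at an unadjusted p under 0.05.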
